A study of Mus musculus with 9 samples.

Results

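The wide RING1B domains of *Eed*+/+ mouse embryonic stem cells (mESCs) are the RING1B peaks on chromosomes 1 to 19 that spanned at least 4500 bp. They numbered 325 of the 2307 autosomal peaks (14.1%) in a list of 2347, and the other 1982 autosomal peaks are called narrower here. The members were selected on their width in *Eed*+/+ cells, so their *Eed*+/+ widths, tag numbers and enrichments describe the selection and carry no test. RING1B chromatin immunoprecipitation with sequencing (ChIP-seq) was performed in *Eed*+/+ and *Eed*-/- mESCs of strain C57BL/6, both grown with serum and leukaemia inhibitory factor, to ask where RING1B stays bound without EED. The *Eed*-/- cells are a constitutive knockout, and the 3 *Eed*-/- libraries carry replicate numbers in the labels but went into 1 peak list. Each genotype is therefore 1 list with no replicate error, and the *Eed*-/- library was 4.18 times as deep. Shares below carry exact (Clopper-Pearson) 95% intervals, which cover counting error only.

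RING1B is the catalytic subunit of Polycomb repressive complex 1 (PRC1), which ubiquitylates histone H2A. EED is a core subunit of PRC2, the complex that methylates histone H3 on lysine 27, and cells without it lack H3K27me3. In mESCs both complexes sit mainly at CpG islands, stretches of dense and unmethylated CG dinucleotides at gene promoters, and their targets are known to include many silent regulators of embryonic development.

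Sequence was compared first, since the parts of a domain that held a RING1B peak in *Eed*-/- cells could be set against the parts that did not. The 3 pairs printed here come from the widest domains that held CpG islands both inside and outside *Eed*-/- peaks, each on another chromosome. Each is the stretch of 120 bases with the most CG dinucleotides inside an *Eed*-/- peak or outside all of them, leaving out annotated UTRs. All are from the plus strand of mm9, with CG dinucleotides in capitals.
*Six3os1* domain, inside (chr17:86020668-86020787, exon of *Six3*): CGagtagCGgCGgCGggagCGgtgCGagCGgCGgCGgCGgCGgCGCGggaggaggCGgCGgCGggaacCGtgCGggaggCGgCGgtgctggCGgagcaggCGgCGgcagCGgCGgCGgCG
*Six3os1* domain, outside (chr17:86008314-86008433, intergenic): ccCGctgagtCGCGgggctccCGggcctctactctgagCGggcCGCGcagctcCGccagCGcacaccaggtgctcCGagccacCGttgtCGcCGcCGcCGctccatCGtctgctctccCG
*Tbx2* domain, inside (chr11:85651356-85651475, exon of *Tbx2*): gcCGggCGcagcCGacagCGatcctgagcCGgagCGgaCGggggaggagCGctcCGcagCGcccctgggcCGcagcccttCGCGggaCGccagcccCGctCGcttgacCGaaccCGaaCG
*Tbx2* domain, outside (chr11:85646762-85646881, exon of *Tbx2*): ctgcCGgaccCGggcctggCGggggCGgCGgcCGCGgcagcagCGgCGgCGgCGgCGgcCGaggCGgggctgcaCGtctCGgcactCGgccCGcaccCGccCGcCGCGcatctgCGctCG
*Pax7* domain, inside (chr4:139377447-139377566, intron of *Pax7*): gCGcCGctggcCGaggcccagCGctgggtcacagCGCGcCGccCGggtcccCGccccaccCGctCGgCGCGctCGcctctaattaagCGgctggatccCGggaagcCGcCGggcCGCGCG
*Pax7* domain, outside (chr4:139384135-139384254, intron of *Pax7*): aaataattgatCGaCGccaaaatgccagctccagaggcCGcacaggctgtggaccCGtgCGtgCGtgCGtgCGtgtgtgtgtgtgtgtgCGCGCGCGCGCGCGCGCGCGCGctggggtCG
The inside stretches held 27, 19 and 21 CG dinucleotides in the *Six3os1*, *Tbx2* and *Pax7* domains, against 17, 24 and 20 in the outside stretches. Within each printed pair, the stretch with more CG lay inside an *Eed*-/- peak at *Six3os1* and *Pax7* and outside at *Tbx2*. At *Pax7* the counts were close (21 and 20), and the outside stretch holds a repeat of alternating bases near its end. Annotated UTRs were left out, so these need not be the densest stretches of the domains.

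Over whole domains the parts inside *Eed*-/- peaks were richer in CG. In the 254 wide domains with both parts, the median was 58.3 CG per kb inside (quartiles 49.7 and 68.7) and 27.2 outside (18.1 and 34.9). The inside part was the richer one in 248 of them (97.6%). The 6 exceptions included *Mapk15*, *Nkx2-1*, *Plec1*, *Foxd3* and *Sox6*, which are named after their values were seen. At *Nkx2-1*, a homeobox gene of lung, thyroid and forebrain, the values were 51.1 inside and 58.3 outside. GC content was 59.8% inside and 51.4% outside (medians), and CpG islands filled 48.2% of the bases inside and 12.1% of those outside. The narrower peaks split in the same direction, with medians of 67.1 CG per kb inside and 19.6 outside and the inside part richer in 838 of 857, so the split was not seen in wide domains alone.

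**Figure D1:**
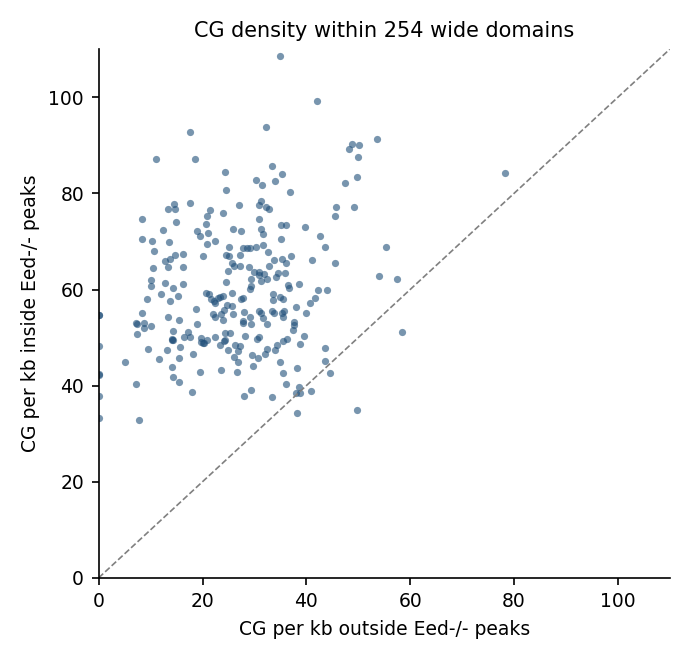
CG dinucleotides per kb in the part of each wide domain outside *Eed*-/- peaks (x axis) and inside them (y axis); each point is 1 of 254 domains and the dashed line marks equal values. All but 6 points lie above the line.

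Wide domains held 619 CpG islands, found by sequence, and 391 of these (63.2%) overlapped an *Eed*-/- peak. The covered islands were the longer ones, with a median of 1027 bp (quartiles 510 and 1856) against 381 bp (267 and 605) for the islands without an *Eed*-/- peak. Of islands under 500 bp 39.8% were covered (96 of 241), of those from 500 to below 1000 bp 65.5% (97 of 148), and of those of 1000 bp and over 86.1% (198 of 230). Their median CG density did not separate them, at 88.0 and 87.7 CG per kb. In narrower peaks it was 101 CG per kb for covered islands and 95.1 for uncovered ones. Covered islands held a protein-coding start site in 203 of 391 cases (51.9%) and uncovered islands in 51 of 228 (22.4%). An island counted as covered when it shared 1 bp with an *Eed*-/- peak. A longer island has more room for such an overlap and for a start site, so length bears on both splits. The part of length in them was not tested. Islands in narrower peaks split in the same directions: 1074 of 2079 (51.7%) were covered, at a median of 1021.5 bp against 589 bp, and start sites lay in 62.8% of the covered and 44.8% of the uncovered ones. Among the 258 domains that had any *Eed*-/- peak, 133 of 524 islands (25.4%) lay outside it, and 96 domains held islands of both kinds.

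The domains ran from 4504 to 18151 bp, with a median of 5825 bp (quartiles 5031 and 7651), against 2518 bp for narrower peaks. They made up 29.5% of the bases and 37.5% of the tags of the autosomal *Eed*+/+ list. Their median tag density was 121 tags per kb (quartiles 88.9 and 152) and that of narrower peaks 77.5. As a level scaled to 1000000 mapped tags, the medians were 7.21 and 4.61 tags per kb, and the median fold enrichment over background was 30.3 and 14.6. At the width threshold, the last peaks left out were nearest to *Neurog2* (4493 bp, level 8.23), *Cdk5r2* (4494 bp, 7.01) and *Dlx6os1* (4496 bp, 4.87), and the first ones taken were *1200009O22Rik* (4504 bp, 12.1), *Thpo* (4511 bp, 4.32) and *Msx1* (4514 bp, 4.73). The *Dlx6os1* peak and this *Msx1* domain had no *Eed*-/- peak and the other 4 had 1 each. Another wide domain under *Msx1* (chr5:38211942-38220814) did hold *Eed*-/- peaks, of 2348 and 2613 bp.

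**Figure D2:**
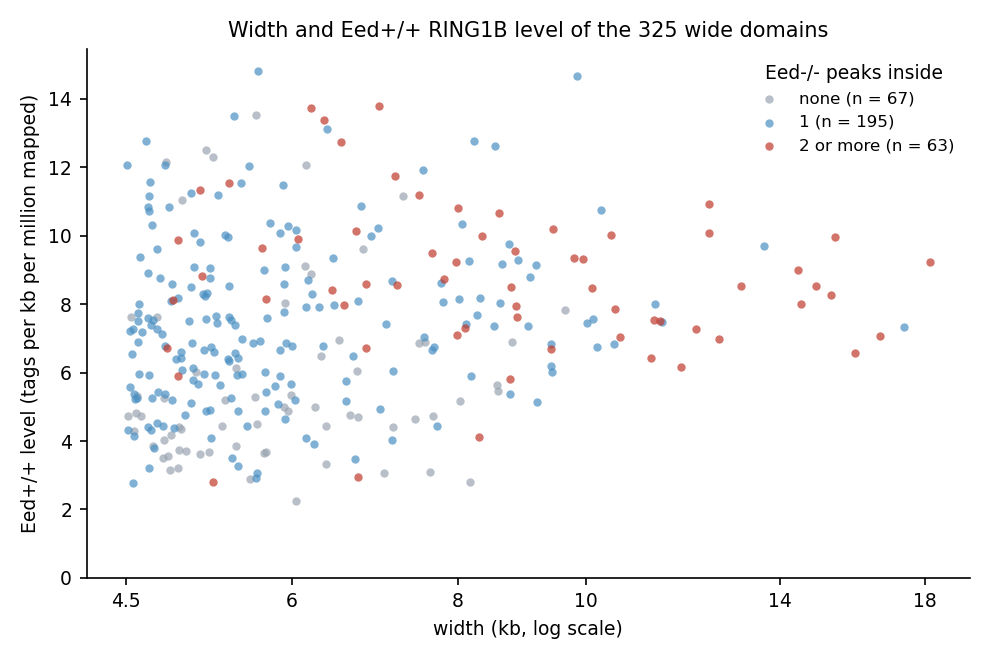
Width (x axis, kb, log scale) and *Eed*+/+ RING1B level (y axis, tags per kb per 1000000 mapped tags) of the 325 wide domains, coloured by the number of *Eed*-/- peaks inside. Domains without an *Eed*-/- peak reach 9632 bp in width, and those with 2 or more reach 18151 bp.

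An *Eed*-/- RING1B peak overlapped 258 of the 325 wide domains by at least 1 bp (79.4%, interval 74.6 to 83.7). The background over all autosomal *Eed*+/+ peaks was 53.7%, and narrower peaks were overlapped in 982 of 1982 cases (49.5%, 47.3 to 51.8). A wider interval has more room for an overlap, so the central 1000 bp of each peak were also compared. An *Eed*-/- peak reached them in 225 wide domains (69.2%, 63.9 to 74.2), beside a background of 52.2% and 49.4% (47.2 to 51.7) of narrower peaks. Wide domains were also more enriched in *Eed*+/+ cells. When all autosomal peaks were cut into 4 bands of equal size by *Eed*+/+ fold enrichment, in the top band 186 of 213 wide domains (87.3%, 82.1 to 91.5) and 256 of 364 narrower peaks (70.3%, 65.3 to 75.0) had an *Eed*-/- peak, and for the central 1000 bp the shares were 74.2% (67.8 to 79.9) and 69.8% (64.8 to 74.5). The intervals of the central shares overlapped in each of the 4 bands, and those of the whole-peak shares in the lower 3. *Eed*-/- peaks with an FDR of 1% or less were fewer, and overlapped 38.8% of wide domains and 11.7% of narrower peaks.

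By width, the overlap was 77.7% of 179 domains from 4500 to 6000 bp, 71.2% of 73 below 8000 bp, 86.0% of 43 below 10000 bp and 100% of the 30 of 10000 bp or more (88.4 to 100). The share whose central 1000 bp were reached did not follow this order, at 74.9%, 64.4%, 55.8% and 66.7%. The bases covered by *Eed*-/- peaks went from a median of 3375 bp in the first of these classes to 4634 bp in the last, so the covered part of a domain fell from 66.4% to 41.3%. Over all 258 domains a median of 56.6% was covered (quartiles 40.3 and 77.8), against 86.3% in the 982 overlapped narrower peaks. Width is the denominator of that share and also the basis of the selection. Over all peaks of each class, overlapped or not, *Eed*-/- peaks covered 45.5% of the bases of wide domains and 41.8% of those of narrower peaks.

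**Figure D3:**
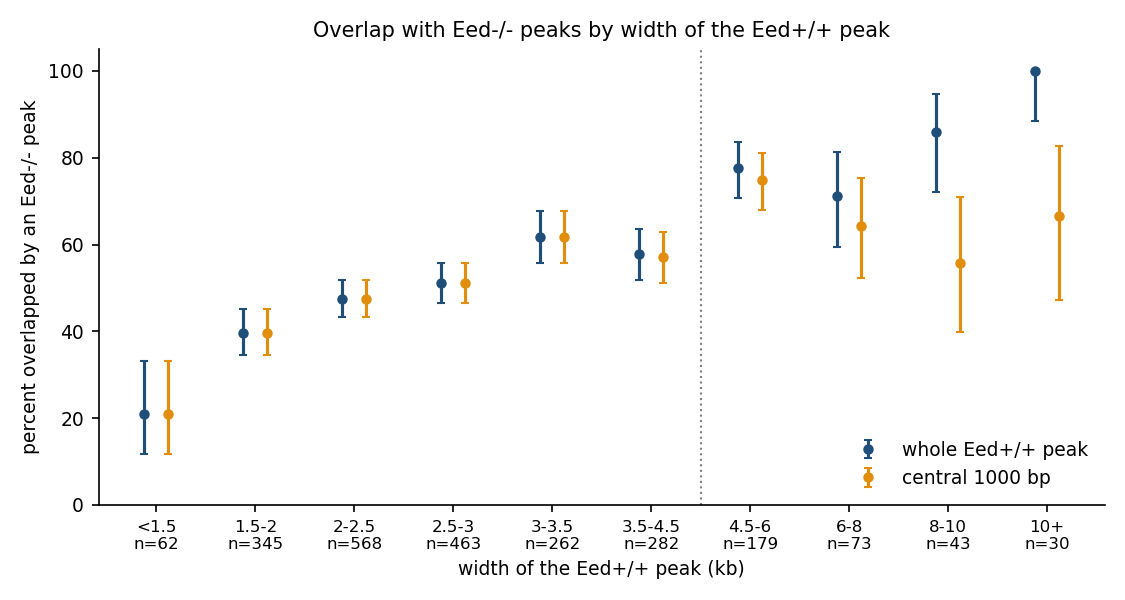
Percent of autosomal *Eed*+/+ peaks overlapped by an *Eed*-/- peak (y axis) in classes of *Eed*+/+ width (x axis, kb, with n), for the whole peak and for its central 1000 bp; bars are exact 95% binomial intervals and the dotted line marks 4500 bp. The whole-peak share reaches 100% in the widest class, where the central share is 66.7%.

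RING1B peaks of *Eed*-/- cells inside the domains were 331 in number, in 332 pairs with a domain since 1 of them, at *Cilp2*, spanned a pair of neighbours. Their medians were 2779 bp in width, 274 in tags, 5.35 in fold enrichment and 1.37 in level, against 2249.5 bp, 215, 4.83 and 1.32 for the 984 *Eed*-/- peaks in narrower *Eed*+/+ peaks. Of the pairs, 277 lay wholly within the domain. Only 43 *Eed*-/- peaks were themselves 4500 bp or wider. A CpG island was overlapped by 320 of the 331 (96.7%) and by 977 of the 984 in narrower peaks (99.3%). The level of the *Eed*-/- peak with the longest overlap was a median of 0.181 times the *Eed*+/+ level (quartiles 0.153 and 0.218), against 0.241 in narrower peaks. That ratio depends on the scaling: with the summed tags of the deposited peaks as totals in place of mapped tags it was 1.28. Those totals make the summed peak tags of both genotypes equal, so they cannot show a loss shared by all peaks. No direction of change is drawn from the ratio alone. Median *Eed*+/+ fold enrichment was 29.8 for the 195 wide domains with 1 *Eed*-/- peak and 39.2 for the 63 with at least 2. It was 5.21 for the *Eed*-/- peaks of longest overlap in these 258 domains. At example loci the paper reported RING1B in *Eed*-/- cells at much lower levels. The *Eed*-/- medians of the 2 classes lay close together (1.35 and 1.32), while the *Eed*+/+ levels of the same peaks were 7.54 and 5.42. Only called *Eed*-/- peaks have a level, so the limits of the peak caller bear on both medians. The ratio also sets an *Eed*-/- peak against the density of the whole *Eed*+/+ peak. Those intervals differed more in wide domains (median cover 56.6%) than in narrower peaks (86.3%).

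The position of the main *Eed*-/- peak was set against the midpoint of the domain. On a scale from 0% at the midpoint of the *Eed*+/+ peak to 100% at its edge, the midpoint of the *Eed*-/- peak was at a median of 26.5% in wide domains and 13.6% in narrower peaks. An *Eed*-/- peak that fills most of a narrower peak has little room to lie off its centre, so the selection on width bears on this pair of values. The *Eed*+/+ summit fell inside an *Eed*-/- peak in 231 of 258 wide domains (89.5%, 85.1 to 93.0) and in 99.3% of narrower peaks (98.5 to 99.7). Of the 229 domains with an *Eed*-/- peak and a protein-coding start site, the peak covered such a site in 198 (86.5%, 81.3 to 90.6). The share was 96.8% (95.3 to 97.9) in narrower peaks and 94.4% over all autosomal peaks. *Eed*-/- peaks covered a median of 56.6% of the overlapped wide domains and 86.3% of the overlapped narrower peaks. The selection on width thus bears on the summit and start-site shares as well, and its part in them was not tested.

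A transcription start site of a protein-coding gene lay in 273 of the 325 domains (84.0%, 79.6 to 87.8) and in 68.2% of narrower peaks (66.1 to 70.2). Start sites of at least 2 genes lay in 23 domains, and 51 (15.7%) held a whole protein-coding gene, against 3.18% of narrower peaks. A longer interval has more room for a start site or a whole gene, so the selection on width bears on these shares. Its part in them was not tested. In the 250 domains with the start sites of 1 gene, the domain reached a median of 2327 bp upstream and 3960 bp downstream of the start, further downstream in 180. Narrower peaks also reached further downstream, by medians of 1701 bp against 805 bp upstream and in 1070 of 1295. Just past the start, 66.4% of these domains were inside an *Eed*-/- peak, and the share was 71.8% of the domains that reached 850 bp downstream. It was 39.2% of the 181 domains that reached 3050 bp downstream and 25.6% of the 86 that reached 2950 bp upstream. CpG island bases followed a narrower course, from 76.4% just past the start to 43.7% at 1050 bp.

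**Figure D4:**
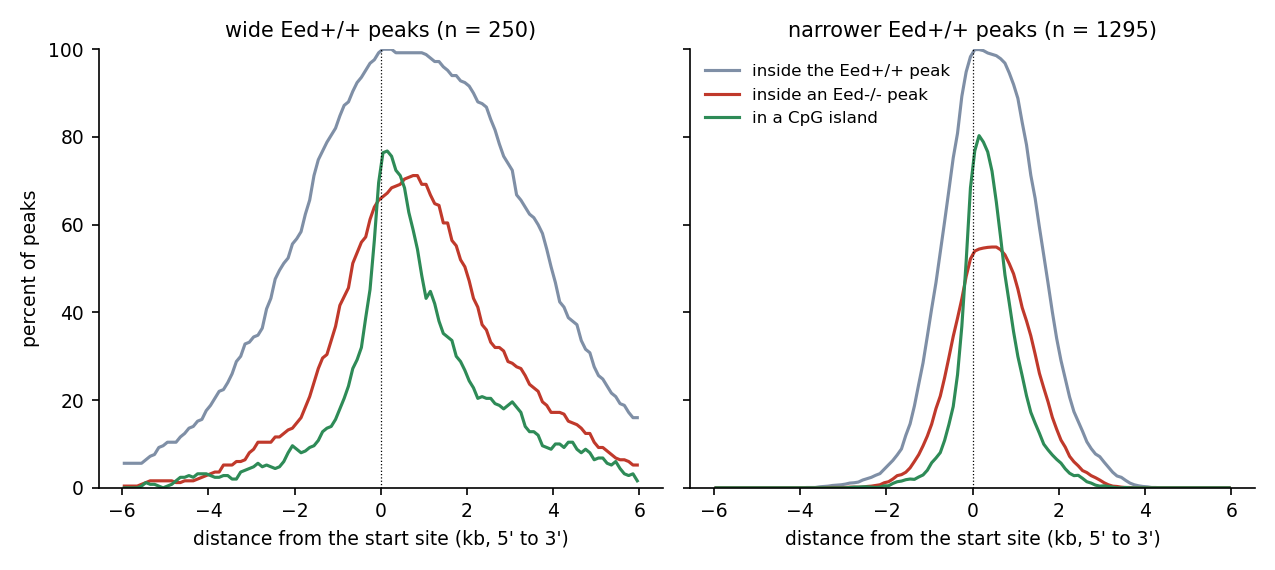
Percent of *Eed*+/+ peaks (y axis) with each position inside the *Eed*+/+ peak, inside an *Eed*-/- peak or in a CpG island, by distance from the most upstream start site (x axis, kb, in the direction of transcription), for 250 wide and 1295 narrower peaks with start sites of 1 protein-coding gene. The *Eed*-/- and CpG island curves count only bases inside the *Eed*+/+ peak, so they cannot lie above its curve. In wide domains the *Eed*-/- curve is highest downstream of the start.

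The widest domains lay at genes of transcription factors, with 1 exception. The domain listed under the antisense RNA *Six3os1* (chr17:86006833-86024983) spanned 18151 bp and held the start of *Six3*, a homeobox gene of eye and forebrain. It had 2814 tags, a level of 9.22 and 7 CpG islands. Its 3 *Eed*-/- peaks, of 3583, 2687 and 2431 bp, began 4917, 8783 and 13073 bp into the domain and had levels of 1.15, 1.08 and 1.48. Together they covered 47.9% of it, including the annotated start sites, while the outermost islands on either side stayed outside.

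The domain at *Tbx2* (chr11:85641834-85659190, 17357 bp, level 7.32), which encodes a T-box factor of heart and limb, took in the whole gene and 8 CpG islands. Its only *Eed*-/- peak, of 2145 bp with 241 tags and a level of 1.60, covered 12.4% of it and reached 2 islands. The *Tbx2* start site and its island of 1507 bp were not among them. At *Pax7* (chr4:139376568-139393207, 16640 bp, level 7.08), a paired-box gene of muscle stem cells and neural crest, the *Eed*-/- peaks covered 26.9%. They were 2229 and 2245 bp wide, with levels of 1.22 and 0.98, and both annotated start sites lay outside them.

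The exception was a domain of 15950 bp listed under *Cbx8*, a chromobox subunit of PRC1 (chr11:118905823-118921772, level 6.58). It overlapped no protein-coding gene and held 5 CpG islands, 4 of them under the 4 *Eed*-/- peaks that covered 45.1%. A gap of 1 bp parted it from another wide domain (chr11:118898271-118905821, 7551 bp) over the *Cbx8* start. Joined, the pair would span 23502 bp and exceed the *Six3os1* domain, so the order of widths depends on where the peak caller cut.

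At *Ebf3*, a helix-loop-helix factor of neurons (15398 bp, level 9.97), the *Eed*-/- peaks of 2027 and 1469 bp lay near opposite ends, on the outer 2 of 3 islands, and the middle island with the start site had none. *Lhx5*, a LIM homeobox gene of the forebrain (15304 bp, level 8.25), held 3 *Eed*-/- peaks over 52.1% of the domain. *Pax2*, needed in kidney and ear (14899 bp, 8.53), and *Hmx1*, a homeobox gene of sensory ganglia and ear (14524 bp, 8.01), also held 3 each, over 51.9% and 54.8%. *Uncx*, a homeobox gene of the somites (14438 bp, 9.01), held 2 over 31.5%. *Onecut3*, a cut-homeobox gene (13615 bp, 9.71), held 1 of 4870 bp around its start site, over 35.8%. *Lbx1*, a homeobox gene of migrating muscle precursors and spinal cord (13081 bp, 8.53), held 2 that did not reach its start site, over 27.6%. The domain at *Hoxb6* (12603 bp, 6.99) took in the starts of *Hoxb5* and *Hoxb6* and held 2 over 36.6%, with 1 of the 2 start sites covered. Among these 12 domains, chosen for their width, the covered share ranged from 12.4% to 54.8%.

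**Figure D5:**
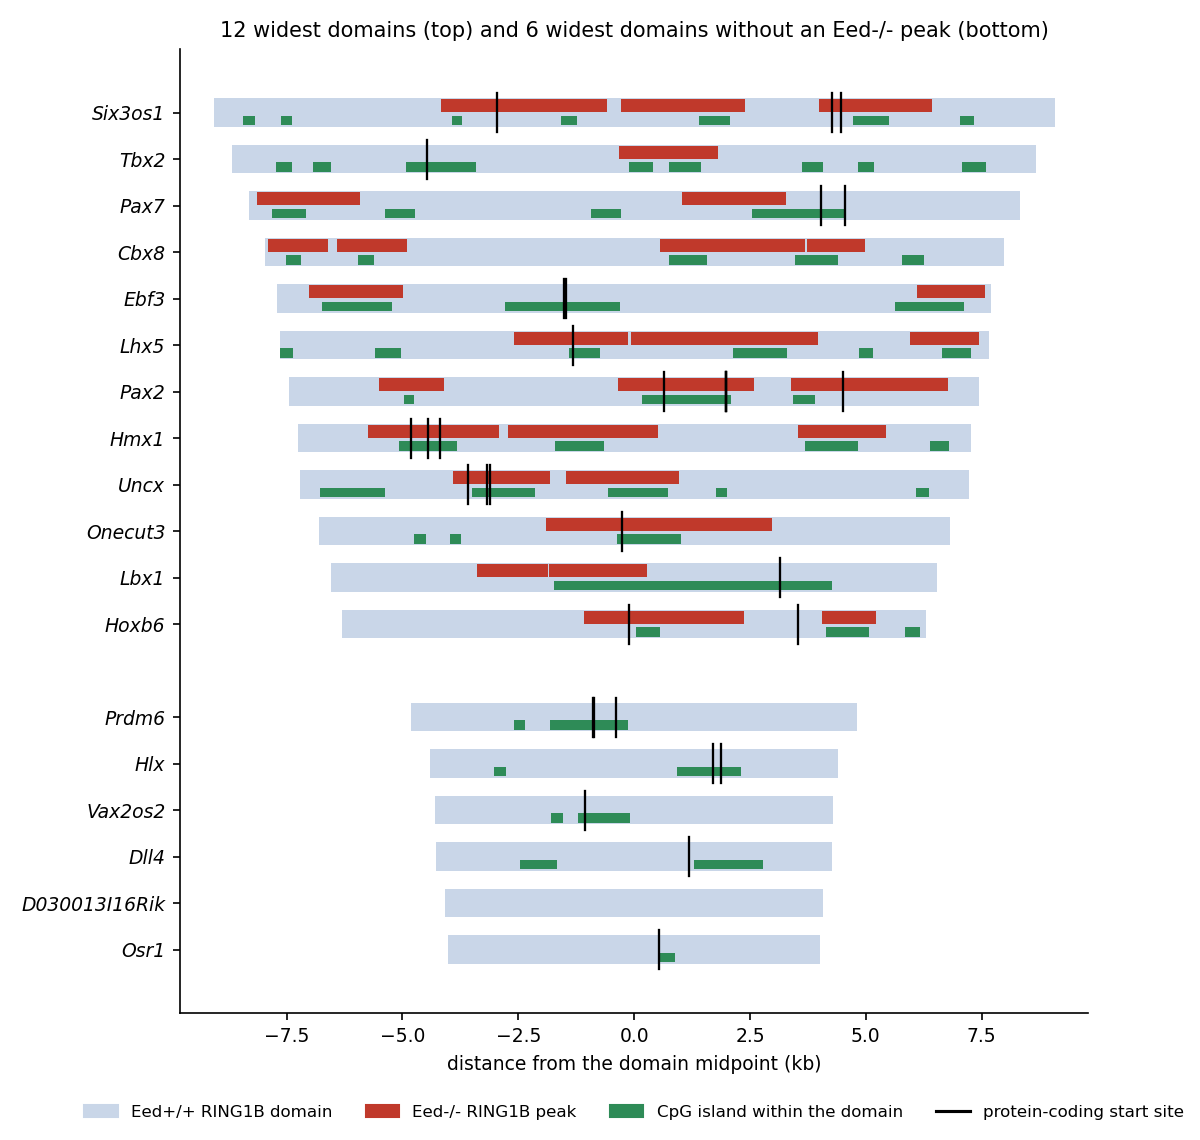
Maps of the 12 widest domains and of the 6 widest without an *Eed*-/- peak, each centred on its midpoint (x axis, kb), with *Eed*-/- peaks, CpG islands and protein-coding start sites. The start sites of *Tbx2*, *Pax7*, *Ebf3* and *Lbx1* lie outside the *Eed*-/- peaks, and *D030013I16Rik* holds no CpG island.

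At least 2 *Eed*-/- peaks lay in 63 wide domains (19.4%, 15.2 to 24.1), beside a background of 2.90% and 4 of 1982 narrower peaks (0.202%). Narrower peaks, at a median of 2518 bp, have little room for a second *Eed*-/- peak, so this difference goes with the width that chose the domains. Per length the order turned, with 15.277 *Eed*-/- peaks per 100 kb of wide domain and 18.995 per 100 kb of narrower peak. The counts per domain were 195 with 1, 54 with 2, 7 with 3 and 2 with 4. Neighbouring *Eed*-/- peaks were a median of 292.5 bp apart and 21 of 74 gaps were under 100 bp. When *Eed*-/- peaks up to 1000 bp apart were joined, 21 wide domains (6.46%) still held at least 2, and none of the narrower peaks did. In 41 of the 63 domains each *Eed*-/- peak had a CpG island that no other one touched. These 63 domains were also wider (median 8347 bp), with a median of 3 CpG islands, than the 195 with 1 *Eed*-/- peak (5460 bp, 2 islands) and the 67 without (5643 bp, 1 island).

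*Tbx1*, a T-box gene of the pharyngeal arches and outflow tract, had 4 *Eed*-/- peaks of 4337, 2836, 3415 and 1290 bp in a domain of 12366 bp (chr16:18580110-18592475, level 10.9). They followed each other closely and covered 96.1%, the opposite of its relative *Tbx2*. The widest domains with 3 were those at *Six3os1*, *Lhx5*, *Pax2* and *Hmx1*. *Gata2*, a zinc finger gene of blood progenitors, also had 3 (10103 bp, 74.8% covered). Whole cover by 1 *Eed*-/- peak was seen in 4 domains, at *Plec1*, *Ecel1*, *Bai1* and *Cilp2*, named after their values were seen.

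The 67 domains without an *Eed*-/- peak had a median level of 4.80, a median of 851 bp of CpG island and 35.7 CG per kb. The 195 with 1 had 7.32, 1882 bp and 45.7 CG per kb. Narrower peaks differed in the same direction. Their medians were 3.99, 632 bp and 44.1 CG per kb without an *Eed*-/- peak, and 5.41, 1099 bp and 57.6 with 1. The widest domain without was *Prdm6*, a zinc finger gene of smooth muscle (chr18:53620278-53629909, 9632 bp). Its fold enrichment was 67.7, and its level of 7.82 was above the median of the wide domains that had an *Eed*-/- peak (7.54). *Hlx*, a homeobox gene of gut and liver (8790 bp, level 6.89), *Vax2os2* at the eye homeobox gene *Vax2* (8578 bp, 5.46) and *Dll4*, a Notch ligand of arteries (8561 bp, 5.65), each held 2 islands. *Osr1*, a zinc finger gene of kidney and heart precursors (8037 bp, 5.18), held 1 island of 343 bp. *D030013I16Rik* (chr17:3005979-3014148, 8170 bp, level 2.80) held none.

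CpG islands were absent from 5 wide domains, listed under *9130024F11Rik*, *P4ha1*, *D030013I16Rik*, *Rybp* and *Hand2*, and none of the 5 had an *Eed*-/- peak. Another wide domain under *Hand2* (chr8:59797972-59803229) and another under *9130024F11Rik* (chr1:57025589-57030961) each had an *Eed*-/- peak on a CpG island. The domain under *P4ha1* had the lowest fold enrichment of all autosomal *Eed*+/+ peaks (2.93), *Rybp* the next (3.13) and *D030013I16Rik* the fifth (3.50), with 11.6, 5.79 and 4.65 CG per kb. RYBP is a PRC1 subunit itself, but this domain (chr6:100408212-100414256) overlapped no protein-coding start site. It also had the lowest tag density (37.9 tags per kb), followed by *Acr* (46.6), *Myh7b* (47.0) and *D030013I16Rik* (47.1). *Acr* and *Myh7b* differed from the other pair in that *Eed*-/- peaks covered 99.6% and 97.3% of them. The densest domains were *Nkx2-1* (249 tags per kb), *Lbxcor1* (247), a corepressor gene of dorsal spinal neurons, *Egr3* (232), an early response zinc finger gene, and *Pou3f2* (231), a POU homeobox gene of neurons. All 4 had *Eed*-/- peaks, covering 29.4%, 24.7%, 90.7% and 62.3%.

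By the nearest gene the authors give, the 18 gene lists used, which run from homeobox genes to ion channels, took in 180 of the 325 domains (55.4%), against 30.4% of narrower peaks. As a reference for the counts that follow, 14.1% of all autosomal peaks were wide and 79.4% of wide domains had an *Eed*-/- peak.

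Homeobox genes outside the Hox clusters were the largest list, with 70 wide domains of 215 peaks (32.6%). Of these 56 had an *Eed*-/- peak and 26 had at least 2. Hox genes, which set position along the body axis, had 16 wide domains of 70 peaks (22.9%), and 13 had an *Eed*-/- peak. These were narrow beside the domain, with a median cover of 37.1%: *Hoxc9* (11399 bp) was covered to 10.9%, *Hoxa11* (11372 bp) to 37.1% and *Hoxb7* (9409 bp) to 16.6%. The 3 without were *Hoxd4*, *Hoxa2* and *Hoxd12*, named as the whole remainder of the list. Of the paired-box genes 6 of 21 peaks were wide and 4 had an *Eed*-/- peak. *Pax9* of teeth and thymus (11265 bp) and *Pax1* of the vertebral column (8013 bp) were covered to 22.4% and 17.9%.

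Forkhead genes had 13 wide domains, 11 of them with 1 *Eed*-/- peak and none with more. *Foxc1* of eye and mesoderm (9167 bp), *Foxb1* of the hypothalamus (8642 bp), *Foxb2* (8232 bp) and *Foxf2* of the palate (8066 bp) were covered to 22.8%, 33.8%, 85.5% and 42.7%. AP-2 and nuclear receptor genes had 13 of 35 peaks wide (37.1%), 11 with an *Eed*-/- peak. They included *Nr2e1* of neural stem cells (12092 bp, 34.4% covered), *Nr4a3* (9043 bp, 16.6%), *Tcfap2a* of the neural crest, with 3 domains of which the widest spanned 7651 bp (54.9%), and *Tcfap2c* of trophoblast and germ cells (6730 bp, 54.2%). The zinc finger list of GATA, Zic, Gli, Sall and Prdm genes had 11 of 33 wide, 8 with an *Eed*-/- peak. In *Prdm16* of brown fat (10487 bp) 41.1% was covered, and in *Zic1* of the cerebellum (10007 bp), which had the highest fold enrichment of the wide domains (80.1), 17.2%.

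Helix-loop-helix genes had 10 of 53 peaks wide, 6 with an *Eed*-/- peak. *Olig2* of oligodendrocytes and motor neurons (10444 bp) and *Sim2* (8347 bp) were covered to 56.7% and 56.3%, and *Hand1* of heart and placenta (7552 bp) and *Helt* of midbrain neurons (5917 bp) had none. T-box genes had 4 of 24 wide. *Tbx1* and *Tbx2* had *Eed*-/- peaks, and *Tbx15* (5738 bp) and *Tbx4* of the hindlimb (5081 bp) had none. Sox genes had 2 of 17, *Sox9* of cartilage and testis (5732 bp) and *Sox6* (5381 bp), both with *Eed*-/- peaks.

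In the main lists of signalling genes the median cover was higher and the domains were not as wide. Of the Bmp, Tgfb, Fgf and Hedgehog list 9 of 37 peaks were wide, and 8 had an *Eed*-/- peak with a median cover of 81.8%. *Fgf9* (6708 bp), *Gdf7* (6431 bp) and *Ihh* of growing cartilage (6044 bp) were covered to 88.1%, 89.9% and 98.8%, and *Shh*, the morphogen of neural tube and limb (9792 bp), to 44.8%. Wnt ligands, receptors and antagonists had 7 of 39, 5 with an *Eed*-/- peak and a median cover of 85.0%, among them *Wnt7b* (8003 bp, 85.4%), *Wnt1* (5423 bp, 57.5%), *Wnt3* (5407 bp, 86.2%) and *Wnt10a*, which had a domain of 7144 bp without and a domain of 5207 bp with one. These medians rest on 8 and 5 domains, with median widths of 5662 and 5407 bp, against 6898.5 bp and a median cover of 52.5% for the 56 overlapped domains at homeobox genes outside the Hox clusters. Cover was higher in domains of less width, as given above, and its part in these medians was not tested. The Notch list had *Dll4* and *Lfng*, a glycosyltransferase that modifies Notch (4532 bp, 97.6%).

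The other lists varied in how often they reached the threshold. Axon guidance genes had 2 wide domains of 41 peaks (4.88%), *Efna3* (5738 bp) and *Ntn1* (4656 bp), and ion channel and neurotransmitter receptor genes had 5 of 98 (5.10%), the widest at *Grid1* (6171 bp), *Kcnrg* (5825 bp), *Kcnk12* (4873 bp) and *Kcnh3* (4853 bp). Cadherin and protocadherin genes had 5 of 28 (17.9%). Of the widest, *Pcdh7* (7269 bp) had no *Eed*-/- peak despite a level of 11.2, and *Pcdh10* (6371 bp), *Pcdh17* (5925 bp) and *Pcdh8* (5913 bp) had 1 each. Cyclin-dependent kinase inhibitor genes had 0 of 8 and pluripotency genes 0 of 4. With 14.1% of all autosomal peaks wide, lists this small cannot be told apart from that share. Polycomb group genes had 5 of 12 wide (41.7%), nearest to 4 genes, and 4 of the 5 had *Eed*-/- peaks. Both domains at *Cbx8* are among the 5, parted by a gap of 1 bp. The share of this small list thus depends on where the peak caller cut. The list also held *Sfmbt2*, an MBT-domain gene of the placenta, whose domain spanned 7140 bp and was covered to 24.3%.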

How the data were processed

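RING1B ChIP-seq peak lists of *Eed*+/+ and *Eed*-/- mESCs, 1 per genotype, were analysed. Uniquely placed tags were aligned by the authors to mm9 (bowtie), and MACS peaks with an FDR below 2% and more than 100 tags were retained. Tool versions and the control library: not given in the sources used here. Per peak, the deposited values are tag counts, fold enrichment (a ratio), FDR in percent, a p-value score, a summit and the nearest gene from CisGenome and custom scripts of the authors. They also flag the authors' own overlaps, which were not used. The study states 16814546 mapped tags for *Eed*+/+ (1 lane) and 70343706 for *Eed*-/- (3 lanes). CBX7 and input samples were not analysed here. Some named domains are not reported here.

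From these lists, level was computed as tags per kb of peak per 1000000 mapped tags, without input subtraction. Peaks overlapped when they shared 1 bp. CpG islands came from a running score over the genome (17 for CG, -1 otherwise) with minimums of 200 bp, 50% GC and 0.6 for the observed over expected CG. Start sites, exons and genes came from GENCODE M1 (NCBIM37, mm9). With 1 list per genotype no test was run, so differences were read from counts, medians and exact binomial intervals. Alternatives changed the overlap, FDR, width threshold, chromosomes, scaling, islands and transcripts. Named were the 12 widest domains, the 6 with the most and the 6 widest with no *Eed*-/- peak, the 4 of highest and lowest tag density, 3 peaks on either side of the threshold and up to 4 domains of each list. The domains, lists and rules were chosen with earlier results of these data known. Code was checked on simulated intervals (2000 of 2000 overlaps recovered) and 100 planted islands (100 found). Python 3.11.15, numpy 2.4.6, scipy 1.17.1, numba 0.67.0 and matplotlib 3.10.9 were used.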

Additional observations from a re-analysis of the deposited data

How the results depend on the processing

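No paired analysis was possible because each genotype had 1 peak list and no result came from a test. Of 29 alternatives to the main shares and medians, 15 stayed within the 95% interval of the main value. The share of wide domains with an *Eed*-/- peak (79.4%) moved to 38.8% with *Eed*-/- peaks at an FDR of 1% or less and to 69.2% for the central 1000 bp. The share with at least 2 (19.4%) moved to 3.69% at that FDR, to 15.1% and 36.3% at width thresholds of 4000 and 6000 bp, and to 6.46% with *Eed*-/- peaks up to 1000 bp apart joined. The median cover (56.6%) moved to 47.9% at 6000 bp and to 51.8% with *Eed*+/+ peaks up to 1000 bp apart joined. The ratio of levels (0.181) turned to 1.28 with the summed peak tags as totals, and was 0.175 at 6000 bp. The *Eed*+/+ tag density (121 tags per kb) was 132 at 6000 bp. The share of *Eed*-/- peaks on a CpG island (96.7%) was 86.1% with stricter islands and 99.3% at an FDR of 1% or less, and the share of domains with a start site (84.0%) was 88.6% with all transcripts. Of the 12 widest domains, 12 kept their number of *Eed*-/- peaks when 50% of the peak had to overlap and 4 at an FDR of 1% or less. Joining peaks and leaving out domains without a CpG island were chosen after seeing the data.

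The lists hold peaks above a tag minimum, and the *Eed*-/- library was 4.18 times as deep, so the same minimum stood for a lower level there. The lists do not show RING1B below that limit, so a domain without an *Eed*-/- peak is one without a call.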

Other observations

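Wide domains often lay close to other *Eed*+/+ peaks. Another peak began or ended within 5000 bp of 145 of the 325 domains (44.6%, interval 39.1 to 50.2) and of 19.6% of narrower peaks (17.9 to 21.4), and within 100 bp of 42 (12.9%, 9.47 to 17.1) and 4.29% (3.44 to 5.28). Gaps of at most 10 bp parted wide domains from a neighbour at *Lhx9*, *Nr2f2* and *Cbx8*, among others. When *Eed*+/+ peaks up to 1000 bp apart were joined, 359 domains reached 4500 bp. The widest then ran for 38304 bp over *Hoxa3* to *Hoxa10* (chr6:52149841-52188144), from 9 *Eed*+/+ peaks, and held 6 *Eed*-/- peaks. Among the 15 widest joined domains, those at *Hlx* (18096 bp from 3 peaks) and *Pax3* (16466 bp from 5 peaks), a paired-box gene of neural crest and muscle, held no *Eed*-/- peak.

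By the process terms deposited with the nearest genes, regulation of transcription was listed for 183 of the 284 domains that carry any term (64.4%, 58.6 to 70.0) and for 31.6% of narrower peaks. Anterior/posterior pattern formation was listed for 11.3% and 4.21%, embryonic limb morphogenesis for 6.69% and 1.82%, and signal transduction for 5.99% and 10.4%. On the X chromosome, outside the autosomal set, 2 peaks reached 4500 bp. The peak at *Bcor*, which encodes a corepressor found with PRC1 proteins (6240 bp, level 4.99), held 2 *Eed*-/- peaks, and that at *Sox3*, of the pituitary and brain (5389 bp, level 3.99), held 1.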
